A study of Rattus norvegicus with 6 samples.

Results

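The nuclear envelope genes examined here were the lamins Lmnb1, Lmnb2 and Lmna, the inner nuclear membrane proteins Lbr, Emd and Tmpo, and the SUN and KASH proteins Sun1, Sun2, Syne1 and Syne2. These 10 genes were chosen by name, at a time when the differences between NRG1 and mock samples were already known. Of the 10, 7 had a row among the 17327 gene symbols in the count tables, and all 7 passed the filter on low counts. Sun2, Syne1 and Syne2 had no row and were not analysed here, so the machinery that couples the nucleus to the cytoskeleton was represented among the members by Sun1 alone.

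RNA was sequenced from cultures of Schwann cells, the glia that ensheath peripheral axons, prepared from the sciatic nerves of adult Wistar rats. The cultures were starved for 18 h in medium containing 2% foetal bovine serum together with 10 μM forskolin, which raises intracellular cAMP. In this medium they received for 6 h either 10 nM soluble Neuregulin1β1 (NRG1), a ligand of ErbB receptors, or the same volume of the mock solution, PBS with 1% bovine serum albumin. Forskolin and the low serum were therefore common to both groups. Before starvation, per the study's methods, the cells were routinely kept in medium with 10% foetal bovine serum, 10 μM forskolin and NRG1. The mock cells had therefore also met NRG1 earlier. Each of the 3 independent cell preparations, here called replicates 1, 2 and 3, gave 1 mock and 1 NRG1 sample.

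Lamins are intermediate filament proteins that form the meshwork under the inner nuclear membrane. The B-type lamins encoded by Lmnb1 and Lmnb2 keep a farnesyl lipid anchor and stay at the membrane, whereas Lmna encodes lamins A and C, which are abundant in differentiated cells and are also found inside the nucleus. LBR, emerin (Emd) and the membrane forms of LAP2 (Tmpo) link the meshwork and the chromatin to the membrane, and SUN proteins bind KASH proteins across the perinuclear space. In glia the family is best known through LMNB1, since extra copies of this gene cause an adult-onset loss of myelin in the human central nervous system.

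The starts of the Lmnb1 and Lmnb2 genes are shown because these were the members that differed most between the groups. The sequences are the 250 bases before the annotated start in the RefSeq annotation of GRCr8, a later build than the rn5 assembly used for the counts, and both genes lie on the plus strand. Capitals mark matches to the motifs searched, which were CACGTG (E-box) in both and, in Lmnb1, also CCAAT (NF-Y) read on the opposite strand.
Lmnb1, chr18:52373689-52373938: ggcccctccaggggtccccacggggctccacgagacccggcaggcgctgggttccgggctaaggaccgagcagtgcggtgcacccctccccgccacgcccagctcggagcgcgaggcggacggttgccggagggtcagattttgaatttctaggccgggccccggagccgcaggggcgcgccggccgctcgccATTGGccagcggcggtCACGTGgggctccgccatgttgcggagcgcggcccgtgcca
Lmnb2, chr7:9443058-9443307: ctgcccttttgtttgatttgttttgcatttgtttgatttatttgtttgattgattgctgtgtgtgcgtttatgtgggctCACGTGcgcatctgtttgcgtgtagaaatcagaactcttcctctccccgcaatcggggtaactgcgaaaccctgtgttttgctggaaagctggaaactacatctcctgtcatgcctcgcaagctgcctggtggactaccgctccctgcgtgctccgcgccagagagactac
The E-box began 41 bases before the start of Lmnb1 and 171 bases before that of Lmnb2. It was present in these 2 of the 9 members that had a sequence in the RefSeq table, and in 5.59% of all 33469 rat windows of this length. CCAAT was found in 4 of the 9, namely Lmnb1, Lbr, Tmpo and Sun2, against 34% of all windows, and the GC box GGGCGG in 5 of the 9, namely Lmna, Lbr, Tmpo, Sun2 and Syne2, against 30.5%. The E2F motifs TTTCCCGC and TTTGGCGC, present in 0.813% and 0.412% of all windows, and the CRE motif TGACGTCA, present in 1.59%, had no match in any of the 9. All 6 motifs were searched on both strands. The matches of GGGCGG in Lbr overlap each other, as do those 99 and 94 bases before the start of Sun2. The window of Lmnb1 was 74.8% G and C and that of Lmnb2 49.6%, around a median of 51.2% over all windows. These matches describe the letters in the windows, and the counts give no information on factors bound there.

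Counts on genes ranged from 6821590 to 15475018 per library, and a floor of 3 counts corresponded to between 0.194 and 0.440 CPM, which scales counts by library depth. The least counted member value was 76 counts, so that every member was far above that floor. Between 24.5% and 29.9% of the alignments were not unique and entered no gene, and within each replicate the NRG1 library had the larger share. The part of this share in the differences was not tested. The 2 libraries of replicate 1 stood apart from the other 4 in markers of fibroblasts. Dcn, Lum and Thy1 were counted only in replicate 1, with Thy1 at 1241 CPM in its mock and 1121 CPM in its NRG1 sample, and 99.8% of the Pdgfra and 96.3% of the Col3a1 signal came from there. The other 2 fibroblast markers did not follow this pattern, since Col1a1 had 48.7% of its signal in replicate 1 and reached 21477 CPM in the other replicates, and Col1a2 had at most 0.225 CPM in any library. The summed level of the 7 fibroblast markers, most of it Col1a1, was 52262 CPM in mock sample 1, 22314 CPM in mock sample 2 and 14052 CPM in mock sample 3, and between 13684 and 56582 CPM in the NRG1 samples. The 8 Schwann cell markers summed to 6021 CPM in mock sample 1, against 16084 and 15845 CPM in mock samples 2 and 3, with Sox10 present at 387, 1090 and 1174 CPM. The macrophage genes Ptprc, Aif1 and Itgam and the endothelial genes Pecam1 and Cdh5 were listed at or near 0 in all 6 libraries. Other macrophage genes were counted, Cd68 at 1.96 to 3.68 CPM and Csf1r at 0.523 to 1.12 CPM. Cd14 was at 7.58 CPM in the mock and 5.23 CPM in the NRG1 sample of replicate 1, against at most 0.337 CPM in the other libraries. A value of 0 in these tables need not mean that a gene was not expressed, as the widely expressed Ybx1 was also listed at 0 in all 6, and Col1a2 was near 0 beside an abundant Col1a1. The 6 macrophage markers summed to between 3.23 and 10.1 CPM in mock and between 3.71 and 8.10 CPM in NRG1 samples, the 5 endothelial markers to between 9.80 and 15.2 CPM and between 6.40 and 8.87 CPM, nearly all of it Tek, and the 4 perineurial markers to between 114.5 and 196.5 CPM and between 108.0 and 129.9 CPM. Of the perineurial markers 2 were tested and both passed in opposite directions, Itgb4, an integrin subunit that Schwann cells also express, with a log2 difference of -1.44 (adjusted p = 4.59e-06 with edgeR) and the glucose transporter gene Slc2a1 with 0.59 (adjusted p = 0.00452 with edgeR). Without replicate 1 these were -1.43 and 0.49, and the call of Slc2a1 was lost (adjusted p = 0.0512 with edgeR). Of the Schwann cell markers tested, 3 of 7 fell, among them S100b and Cdh19, and none rose. Beside each of these marker lists, 5.51% of all genes tested were lower and 6.31% higher at the same threshold. Without replicate 1 Cdh19 still passed, with -1.003, whereas S100b, with -0.47, did not. The part of these changes in the lamin differences was not tested. Of the fibroblast markers 0 of 3 passed in edgeR or DESeq2 with all replicates, with 1, Col3a1, at an unadjusted p under 0.05. Its log2 difference was -0.98 (adjusted p = 0.0118 with edgeR). Without replicate 1 Col3a1 did pass, with -1.48 (adjusted p = 3.16e-13 with edgeR), whereas Col1a1, with -0.33, did not. Col3a1 also passed with RLE scaling and with no low-count filter. In RNA from whole cultures, fewer cells of a type and less RNA per cell cannot be told apart, and each member's difference between NRG1 and mock is therefore also given without replicate 1.

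Lmnb1 was the most changed member. Its level was 11.0, 11.2 and 11.2 CPM in mock samples 1, 2 and 3 and 24.6, 28.0 and 26.1 CPM in NRG1 samples 1, 2 and 3. The groups did not overlap, and every NRG1 sample was above every mock sample. The means were 11.1 ± 0.135 CPM in mock and 26.2 ± 1.70 CPM in NRG1 samples (SD, n = 3), and the underlying counts were 84, 76 and 142 without and 188, 249 and 404 with NRG1. The paired fit to all genes gave a log2 difference of 1.23 (standard error 0.15, 95% interval from 0.90 to 1.56), a 2.35-fold higher level. The log2 ratio within replicates 1, 2 and 3 was 1.15, 1.30 and 1.21, and without replicate 1 the fitted difference was 1.27. The value is given as a description, with no p, because the members were put forward with this contrast known and Lmnb1 had already been singled out in it. The adjusted p-values of the other members come from the fit over all genes and likewise describe a contrast known beforehand.

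Lmnb2, the other B-type lamin, also rose. Its level was 15.3, 23.2 and 22.8 CPM in mock samples 1, 2 and 3 and 28.8, 36.5 and 37.0 CPM in NRG1 samples 1, 2 and 3. Again the groups did not overlap, and replicate 1 had the lowest value of each group. The means were 20.4 ± 4.45 CPM in mock and 34.1 ± 4.61 CPM in NRG1 samples (SD, n = 3). The log2 difference was 0.75 (standard error 0.14, adjusted p = 0.00165 in edgeR's quasi-likelihood test), a 1.68-fold higher level, with ratios of 0.90, 0.65 and 0.70 in the 3 pairs and a difference of 0.68 without replicate 1. The 95% interval from 0.45 to 1.04 included the log2 difference of 1 that the study used as its minimum for a regulated gene. The pair ratio of Lmnb1 exceeded that of Lmnb2 by 0.25, 0.65 and 0.51 in replicates 1, 2 and 3, and an exact paired permutation test over 3 pairs cannot reach a p of 0.05.

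**Figure D1:**
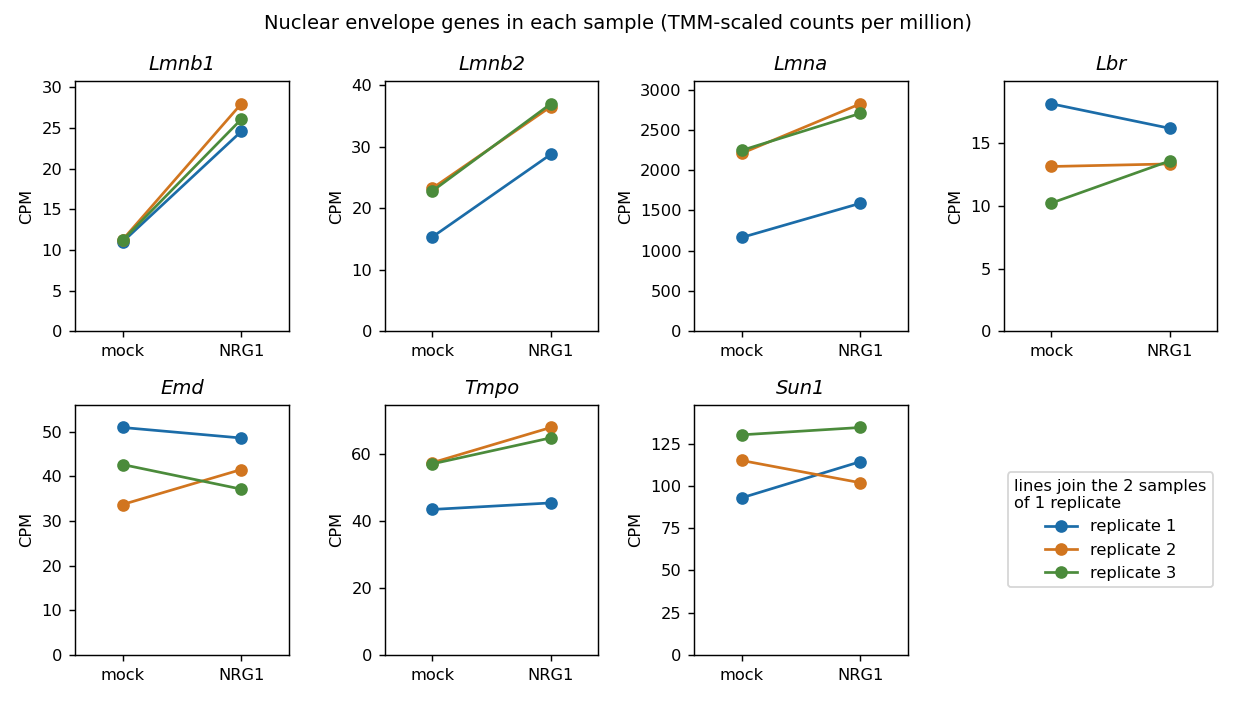
TMM-scaled CPM (vertical axes, each starting at 0) of the 7 members in the 3 mock and 3 NRG1 samples, with a line joining the 2 samples of each replicate. The 3 Lmnb1 lines start together at 11.0 to 11.2 CPM and end at 24.6 to 28.0 CPM, whereas those of Lbr, Emd and Sun1 cross.

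Lmna was the member with the highest counts and showed a smaller difference that did not pass the threshold. It was counted at 1163, 2208 and 2245 CPM in mock samples 1, 2 and 3 and at 1588, 2823 and 2704 CPM in NRG1 samples 1, 2 and 3. The NRG1 sample was the higher one in each of the 3 pairs, but the groups overlapped, since NRG1 sample 1 lay below mock samples 2 and 3. The log2 difference was 0.36 (standard error 0.13, 95% interval from 0.07 to 0.64, adjusted p = 0.0666 with edgeR). DESeq2 gave 0.36 with an adjusted p of 0.0226, above the threshold of 0.01 as well. Without replicate 1 the difference was 0.31 and the adjusted p from edgeR 0.261. The counts were made per gene, so lamin A and lamin C transcripts, which arise from Lmna by splicing, were not separated.

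The balance of lamin counts within each library moved towards the B types. There were 106, 197 and 201 Lmna counts per Lmnb1 count in mock samples 1, 2 and 3, which became 64.6, 101 and 104 with NRG1. In each pair the ratio was lower after NRG1, replicate 1 had the lowest value of each group, and the groups did not overlap, although the lowest mock and the highest NRG1 value were close. On the log2 scale the pair ratio of Lmnb1 was above that of Lmna by 0.70, 0.95 and 0.94, and that of Lmnb2 was above that of Lmna by 0.45, 0.29 and 0.43. Lmnb1 counts per Lmnb2 count went from 0.718, 0.484 and 0.491 in mock samples 1, 2 and 3 to 0.855, 0.766 and 0.705 in NRG1 samples 1, 2 and 3, higher in each pair but with groups that overlapped. These ratios take no account of transcript length and serve to compare libraries, not to say which lamin was more abundant.

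**Figure D2:**
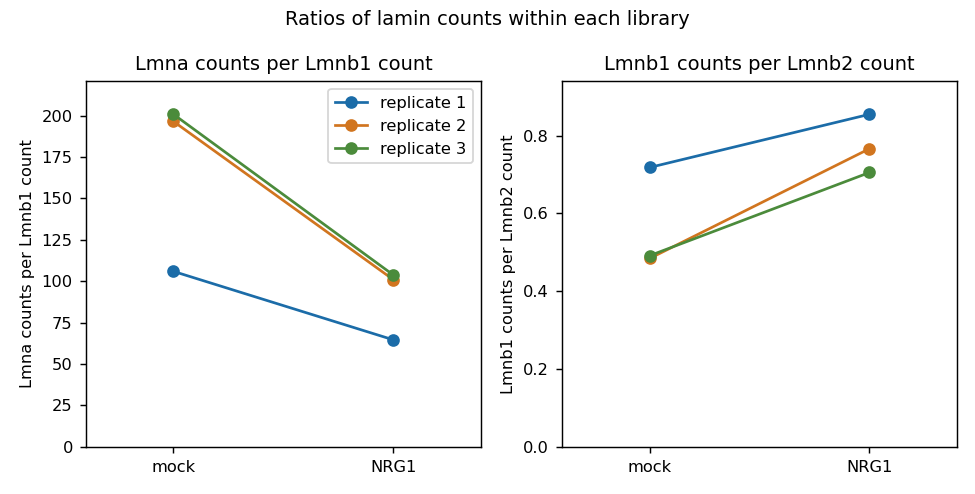
Lmna counts per Lmnb1 count (left) and Lmnb1 counts per Lmnb2 count (right) in the 6 libraries, with a line joining the samples of each replicate and vertical axes starting at 0. The left ratio is lower and the right ratio higher in NRG1 than in mock in all 3 replicates.

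None of the 3 inner membrane proteins passed the threshold. Lbr, which binds B-type lamins and heterochromatin and also carries a sterol reductase domain, was at 18.2, 13.2 and 10.2 CPM in mock samples 1, 2 and 3 and at 16.2, 13.4 and 13.6 CPM in NRG1 samples 1, 2 and 3. Its pair ratios had no common direction, at -0.16, 0.02 and 0.40, and the log2 difference was 0.10 (95% interval from -0.28 to 0.47, adjusted p = 0.73 with edgeR). Emd, which encodes emerin, a LEM domain protein, was at 51.0, 33.7 and 42.7 CPM in mock and 48.6, 41.6 and 37.2 CPM in NRG1 samples 1, 2 and 3. The groups overlapped, with a log2 difference of 0.001 (95% interval from -0.29 to 0.29, adjusted p = 0.996 with edgeR). Tmpo, which encodes the LAP2 proteins, was at 43.5, 57.5 and 57.2 CPM in mock and 45.5, 68.1 and 65.0 CPM in NRG1 samples 1, 2 and 3. It was slightly higher after NRG1 in each of the 3 pairs, with a log2 difference of 0.16 (95% interval from -0.09 to 0.42, adjusted p = 0.355 with edgeR). Counts were made per gene, so the membrane and other forms of LAP2 were not separated.

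Sun1, the inner membrane component of the bridge to the cytoskeleton, was at 92.9, 115 and 130 CPM in mock samples 1, 2 and 3 and at 114, 102 and 135 CPM in NRG1 samples 1, 2 and 3. Its pair ratios were 0.30, -0.18 and 0.05, so it was lower after NRG1 in replicate 2 and higher in the other 2. The log2 difference was 0.06 (95% interval from -0.21 to 0.32, adjusted p = 0.783 with edgeR). For Lbr, Emd, Tmpo and Sun1 the intervals do not include a log2 difference of 0.5 in either direction, and differences inside the intervals were not detectable with 3 pairs. Without replicate 1 the log2 differences were 0.23 for Lbr, 0.04 for Emd, 0.22 for Tmpo and -0.06 for Sun1, where the sign turned, and none of the 4 passed the threshold.

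Counted together, 2 of the 7 members tested were higher in NRG1 samples at an adjusted p of at most 0.01, beside 6.31% of the 9740 genes tested. Lmnb1 was also over a log2 difference of 1, beside 1.56% of all genes tested. None was lower, beside 5.51% of all genes. At an unadjusted p under 0.05 with edgeR the members were 3, namely both B-type lamins and Lmna, all higher. Ordered by p, Lmna ranked 2574 among the 9740 genes tested, so at least that many genes were under 0.05 too. The lowest NRG1 sample was above the highest mock sample in 2 of the 7, beside 9.79% of all genes. The median log2 difference of the 7 was 0.16, against -0.03 over all genes tested. Because the contrast was known when the genes were named, nothing is read from these counts beyond the values.

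In edgeR the calls of both B-type lamins were made only with the replicate block. With the same edgeR test and no replicate block, neither passed, and 0 of all genes tested did. The adjusted p of Lmnb2 was 0.222 in that edgeR test. DESeq2 without the block, an alternative chosen after seeing the data, called 1 of the 7 members, Lmnb1, and 184 genes in all.

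Among the other genes of the nuclear envelope and of prelamin processing, taken by list, Fntb was the only one past the threshold. Beside this, 6.31% of all genes tested were higher and 5.51% lower at the same threshold. Of 12 inner membrane and lamina partners, 10 were in the tables and tested, and none passed in edgeR or in DESeq2. At an unadjusted p under 0.05 there was 1, Banf1, a DNA-binding protein that holds LEM domain proteins on chromatin, with a log2 difference of 0.27 (standard error 0.13, adjusted p = 0.139 with edgeR). The median over the 10 was 0.02, and they ranged from -0.20 for Tor1aip2 to 0.27 for Banf1. The best counted of them, Tmem43, was at 224, 358 and 398 CPM in mock samples 1, 2 and 3 and at 260, 418 and 424 CPM in NRG1 samples 1, 2 and 3, which overlapped. Of the other SUN and KASH genes only Syne3, which encodes nesprin-3, was tested, at 42.6, 53.7 and 42.8 CPM in mock and 60.4, 33.4 and 50.1 CPM in NRG1 samples 1, 2 and 3, and its pair ratios had no common direction. Sun5, Spag4 and Syne4 were listed at 0 in every library. The chromatin partners of LBR, LAP2 and emerin were 7 genes, of which 5 had a row and Ybx1 was listed at 0 throughout. The 4 tested, Cbx3, Cbx5, Hdac3 and Bclaf1, gave 0 past the threshold in edgeR and in DESeq2, and 0 at an unadjusted p under 0.05, with log2 differences from 0.08 to 0.23.

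**Figure D3:**
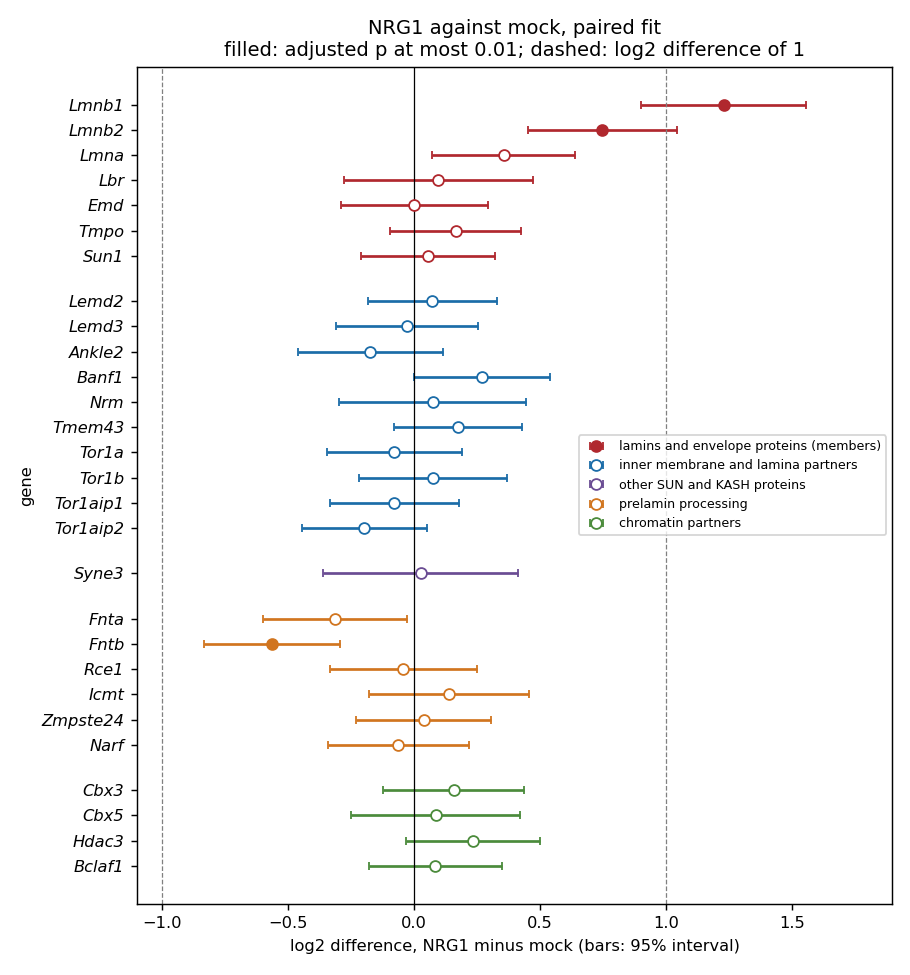
Log2 difference between NRG1 and mock samples (horizontal axis) with its 95% interval for the 7 members and the tested genes of 4 other lists, prelamin processing included. Filled points, at an adjusted p of at most 0.01, are Lmnb1 and Lmnb2 on the right and Fntb on the left, and the dashed lines mark a log2 difference of 1.

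Among the 6 genes of prelamin processing, Fntb fell. It encodes the beta subunit of farnesyltransferase, the enzyme that attaches the farnesyl anchor to B-type lamins and to prelamin A. Its level was 34.9, 61.4 and 68.0 CPM in mock samples 1, 2 and 3 and 22.2, 43.0 and 46.8 CPM in NRG1 samples 1, 2 and 3. The NRG1 sample was the lower one in each pair, while the groups overlapped across replicates. The log2 difference was -0.56 (standard error 0.13, adjusted p = 0.00527 with edgeR). The same value was -0.52 without replicate 1 and -0.56 without replicate 3, where the adjusted p rose to 0.0308 and 0.0465 and the call was lost. Fnta, the alpha subunit, had a log2 difference of -0.31 (standard error 0.13, adjusted p = 0.104 with edgeR) and was lower in each of the 3 pairs. Zmpste24, the protease that cleaves prelamin A, had 0.04 (95% interval from -0.23 to 0.31), and Icmt, the carboxyl methyltransferase of the same series of steps, 0.14 (95% interval from -0.18 to 0.46). The list median was -0.05.

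Lmnb1 is also known as a gene of dividing cells, so 16 proliferation markers were read in the same fit. Of these, 2 rose, 14 did not pass the threshold and none fell, again beside 6.31% and 5.51% of all genes. Those that rose were Uhrf1, a DNA methylation maintenance factor, with a log2 difference of 1.49 (standard error 0.19, adjusted p = 9.08e-05 with edgeR), and Mcm5, a subunit of the replicative helicase, with 1.31 (standard error 0.25, adjusted p = 0.00198 with edgeR). Without replicate 1 these were 1.49 and 1.02 and both still passed. None of the mitotic markers passed the threshold. Mki67 was at 10.6, 19.8 and 6.53 CPM in mock samples 1, 2 and 3 and at 11.2, 16.7 and 8.39 CPM in NRG1 samples 1, 2 and 3. Top2a was lower after NRG1 in each of the 3 pairs, with a log2 difference of -0.16 (95% interval from -0.51 to 0.20). Mki67 thus varied more between the mock samples than Lmnb1 did. The summed level of the 16 genes was between 203 and 253 CPM in mock and between 217 and 305 CPM in NRG1 samples, which overlapped, and the part of cell division in the lamin differences was not tested.

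**Figure D4:**
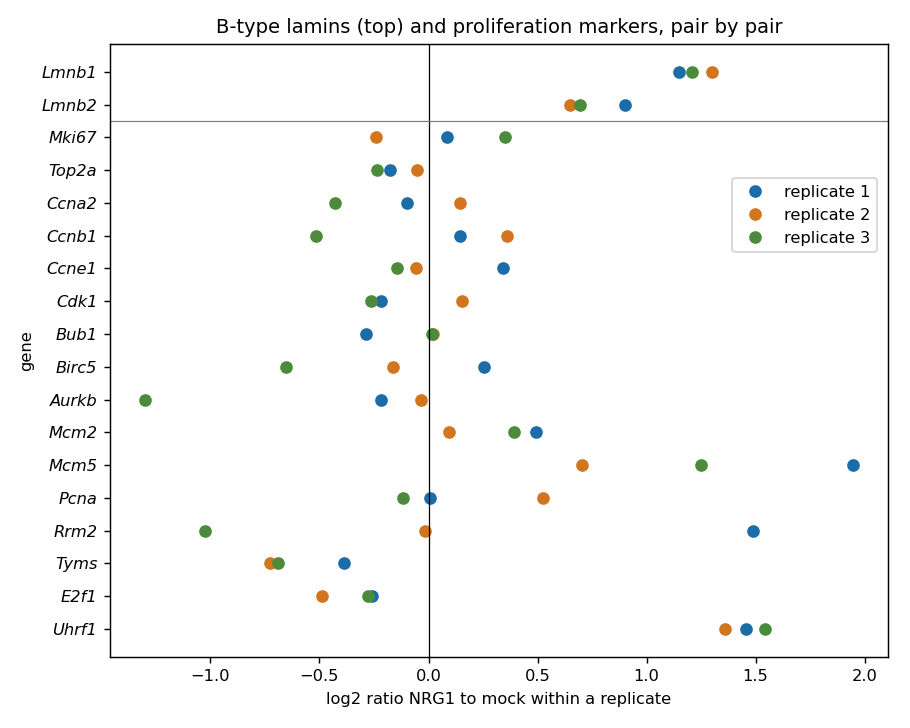
Log2 ratio of NRG1 to mock within each replicate (horizontal axis, 1 point per replicate) for Lmnb1 and Lmnb2, above the grey line, and for 16 proliferation markers. Uhrf1, Mcm5 and Mcm2 lie to the right of 0 in all 3 replicates, as the B-type lamins do, and Top2a, Aurkb, Tyms and E2f1 lie to the left in all 3.

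The members also varied between the cell preparations, by amounts that differed from gene to gene. Over the 3 mock samples the highest value was 1.02 times the lowest for Lmnb1 and 1.93 times for Lmna. The Lmnb1 values rest on 84, 76 and 142 counts, where the sampling of reads alone can spread values by more than this. Their closeness therefore does not show that Lmnb1 was constant between preparations. In mock sample 1, relative to the mean of mock samples 2 and 3, the level was 0.523 times as high for Lmna, 0.665 for Lmnb2, 0.759 for Tmpo and 0.758 for Sun1, and it was 1.55 times as high for Lbr and 1.33 for Emd, against 0.980 for Lmnb1. In the NRG1 samples the same ratio was 0.575 for Lmna, 0.783 for Lmnb2, 0.684 for Tmpo, 0.967 for Sun1, 1.20 for Lbr, 1.24 for Emd and 0.910 for Lmnb1. Replicate 1 is the preparation with the fibroblast markers described above, and the part of these cells in the levels was not tested. Each preparation gave 1 sample per group, so these differences between preparations carry no test.

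Among 7831 other genes with a mean of at least 10 CPM, those whose log2 CPM followed Lmnb1 most closely over the 6 samples included Nme6 (Pearson r = 0.998), Prmt7 (r = 0.994), Kpna6 (r = 0.993) and Polr1e (r = 0.991). Kpna6 encodes an importin alpha, Prmt7 an arginine methyltransferase, Polr1e a subunit of RNA polymerase I and Nme6 a nucleoside diphosphate kinase family member. Like Lmnb1, each had close values in the 3 mock samples and higher ones in all 3 NRG1 samples. Kpna6, for example, was at 37.3, 40.4 and 39.5 CPM in mock samples 1, 2 and 3 and at 54.2, 57.8 and 56.4 CPM in NRG1 samples 1, 2 and 3. The correlation takes no account of the size of a difference. The log2 differences were 0.63 for Nme6, 0.63 for Prmt7, 0.52 for Kpna6 and 0.64 for Polr1e, against 1.23 for Lmnb1. Nme6 did not pass the threshold (adjusted p = 0.0217 with edgeR), whereas Prmt7, Kpna6 and Polr1e did. The 6 samples are 3 pairs that share a preparation. The genes were picked for their likeness to Lmnb1 in pattern, and the correlations describe it without a test.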

How the data were processed

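Per the labels and the study's methods, reads were mapped to the rn5 assembly with TopHat2 2.0.10 and counted per RefSeq gene with HTSeq, and the raw counts were deposited without normalisation, 1 table per sample. The 5 HTSeq summary lines were kept out of library sizes and tests. Gene symbols were matched exactly to the member names, and the members and the other gene lists were chosen with earlier results of these data known. Genes were filtered with filterByExpr (minimum count 10), which left 9740, scaled with TMM and tested with edgeR 4.0.16 in R 4.3.3 by the quasi-likelihood test, with the replicate number as a block. P-values were adjusted over all genes tested by the Benjamini-Hochberg method, with 0.01 as the threshold and no fold change minimum unless stated. Standard errors are the log2 difference divided by the square root of F. Pair ratios are differences of log2 CPM with a prior count of 2.

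The pairing follows the titles and the 3 independent experiments in the labels. Deviations from group means correlated across genes with r from 0.67 to 0.91 for samples of the same number and from -0.80 to 0.51 for others. The deviations of a group sum to 0 over its 3 samples, which pulls correlations between different numbers down. All the negative values involved replicate 1. Between replicates 2 and 3 r was 0.51, against 0.67 within replicate 2 and 0.81 within replicate 3. The scripts were tested on simulated data. The text names all members, listed genes past the threshold and up to 4 others of a list with high counts or, chosen after their values were seen, the extremes of a list and marker genes that describe replicate 1 or are listed at or near 0, and the 5 genes most like Lmnb1 in pattern, of which 1 is not reported here. Promoter windows were read from RefSeq (GRCr8). Transcript lengths and the rn5 annotation were not used here, so members were not ranked by level. Alternatives were DESeq2 1.42.0, RLE scaling, no low-count filter, no block, an adjusted p of 0.05 and leaving out each replicate.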

Additional observations from a re-analysis of the deposited data

How the results depend on the processing

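The 7 members kept their side of the threshold with DESeq2 and the block, RLE scaling, no low-count filter and each replicate left out, with 2 higher and none lower each time. With no replicate block edgeR called 0 members, 0 prelamin processing genes, 0 proliferation markers and 0 of all genes in either direction, with 1334 genes at an unadjusted p under 0.05, 2 of them members. DESeq2 with no replicate block, chosen after seeing the data, called 1 member, 0 prelamin processing genes and 1 proliferation marker, and 114 genes higher and 70 lower in all. An adjusted p of 0.05 gave 1124 genes higher and 1136 lower, and no low-count filter gave 857 lower. With 1 replicate left out at a time, the calls over all genes were from 408 to 590 higher and from 253 to 601 lower, from 0 to 1 prelamin processing genes lower, and a member median log2 difference from 0.17 to 0.23, the highest without replicate 1. Fntb lost its call without replicate 1 or 3 and kept it without replicate 2, at -0.58 (adjusted p = 0.00479 with edgeR). The reason for the loss was not tested. Levels per kilobase, planned with 2 kinds of length, were not run because transcript lengths were not used here. With 3 pairs and 76 to 404 Lmnb1 counts per library, small differences were not detectable.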
